A study of Mus musculus with 12 samples.

Results

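The troponin isoform genes are the 8 mouse genes that encode the slow, fast, and cardiac forms of the 3 subunits of troponin. They were chosen by name as a gene family, but with earlier results of these data known. All 8 are among the 55536 genes of the deposited read count table: *Tnnt1* (slow), *Tnnt3* (fast), and *Tnnt2* (cardiac) for troponin T, *Tnni1* (slow), *Tnni2* (fast), and *Tnni3* (cardiac) for troponin I, and *Tnnc1* (slow and cardiac) and *Tnnc2* (fast) for troponin C. RNA was sequenced from C2C12 cells, a mouse myoblast line that here also expressed green fluorescent protein (GFP) and that fuses into myotubes when serum is lowered. All groups were of this line and differed in the surface of the plate, which was left uncoated (Control) or coated with Collagen I, fibronectin, or Geltrex, a basement membrane extract. Each group had 3 samples, 12 in all. The day of differentiation at which this RNA was taken is not given in the sources used here, nor is whether the samples of a group were separate cultures, so p-values measure only the spread between these samples.

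Troponin sits on the actin filament of striated muscle and makes contraction depend on calcium. Troponin T holds the complex on tropomyosin, troponin I inhibits the interaction of actin with myosin, and troponin C binds calcium and lifts that inhibition. Troponin T and troponin I each have separate genes for slow and fast skeletal fibers and for the heart. Troponin C of slow fibers and of the heart comes from a single gene, and that of fast fibers from another. Embryonic skeletal muscle and cultured myotubes also transcribe the cardiac troponin T gene.

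Each library held between 22520404 and 27351766 counts. Levels are given as CPM, the counts scaled to a common library total after TMM normalization, with samples in the order of replicates 1, 2, and 3. Differences are log2 fold changes from the quasi-likelihood model of edgeR over 14499 genes (the edgeR test), whose Benjamini-Hochberg adjusted p had to reach 0.05 for a call. The 3 Geltrex samples differed less from each other (chi-square per degree of freedom 2.18 to 4.54 over all pairs) than the samples of the other groups (7.71 to 64.6). They differed by more than sampling noise and were kept as 3. That difference cannot show whether they were separate cultures. In RNA from whole cultures, fewer cells of a type and less RNA per cell cannot be told apart.

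Read coverage split the troponin genes. *Tnnt1*, *Tnnt2*, *Tnnt3*, *Tnni1*, *Tnni2*, and *Tnnc1* had between 1044 and 28649 counts in every sample. *Tnni3*, the cardiac inhibitory subunit, had 6 to 20 counts per sample and still passed the filter on low counts, and *Tnnc2*, the fast calcium-binding subunit, had 0 to 6 and did not. So 7 of the 8 genes were tested.

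All 6 abundant troponin genes were lower on fibronectin and on Geltrex than in the Control, slow, fast, and cardiac forms alike. Of the 7 tested genes, 6 passed the threshold as lower on fibronectin, compared with 14.7% of all genes tested, and 6 as lower on Geltrex, compared with 16.6% of all genes. Against the Control these log2 fold changes spanned -2.46 to -1.76 on fibronectin and -2.33 to -1.39 on Geltrex, which is 3.40- to 5.52-fold and 2.62- to 5.02-fold lower. The median over all genes tested was -0.016 and -0.012. On Collagen I, 0 of the 7 tested genes passed the threshold in edgeR's quasi-likelihood test in either direction, where 0.2% of all genes were called higher and 0.917% lower. None of the 7 reached an unadjusted p of 0.05 there, and DESeq2 also called 0.

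The plot of troponin levels by sample shows this split. For the 6 abundant genes, every Control and Collagen I sample lay above every fibronectin and Geltrex sample, and the Control and Collagen I samples overlapped. The share of all genes tested whose samples separated in this way is not given here. This separation, and those of single genes below, therefore only describe the samples. The 95% intervals of their differences between Collagen I and the Control lay between -0.29 and 0.36 on the log2 scale, so that changes of this size or smaller were not resolved.

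**Figure D1:**
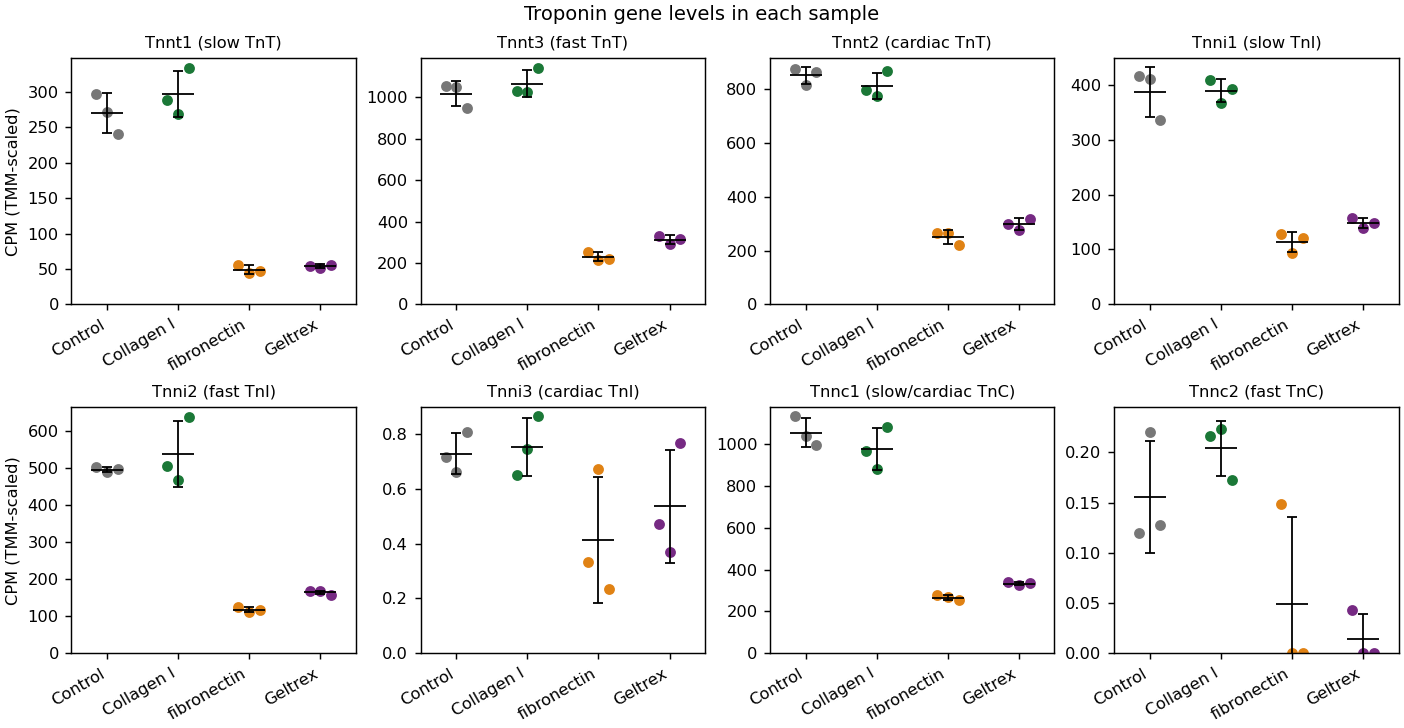
CPM (TMM-scaled, linear axis from 0) of the 8 troponin genes in the 12 samples, by group; points are samples, the horizontal bar is the group mean and the error bar the SD of 3 samples. For Tnnt1, Tnnt3, Tnnt2, Tnni1, Tnni2, and Tnnc1 the fibronectin and Geltrex points lie below all Control and Collagen I points, while Tnni3 and Tnnc2 stay under 1 CPM.

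Markers of the state of the culture differed between the same groups. All 8 myotube markers (among them *Myh3*, *Des*, *Ttn*, *Mymk*, and *Myog*) fell on fibronectin and on Geltrex, where 14.7% and 16.6% of all genes tested were called lower. Their log2 fold changes ranged from -2.10 to -0.65 on fibronectin and from -1.80 to -0.28 on Geltrex (medians -1.96 and -1.48). Their summed level was 5503 to 6003 CPM in the Control, 5579 to 6278 on Collagen I, 1975 to 2155 on fibronectin, and 2688 to 3056 on Geltrex. All 6 markers of proliferating cells (among them *Mki67* and *Top2a*) rose on both, where 17.1% and 16.4% of all genes tested were called higher, and their sums were 169 to 219, 145 to 155, 551 to 733, and 584 to 636 CPM. Of the 4 markers of undifferentiated myoblasts, 1 (*Cdh15*) fell on fibronectin and 1 (*Msc*) rose on Geltrex. Their sums, mostly from *Cdh15*, lay between 234 and 327 CPM in all groups. The part of these cell states in the troponin results was not tested.

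Of the 8 genes, 6 lie in pairs on GRCm38, each pair a troponin T gene beside a troponin I gene. The fast genes *Tnni2* and *Tnnt3* lie together, and the slow genes *Tnnt1* and *Tnni1* each lie beside a cardiac gene. *Tnnt1* (chromosome 7, from 4504570 to 4516382, minus strand) lies 1922 bases from *Tnni3* (from 4518305 to 4524229, minus strand). *Tnni2* (chromosome 7, from 142441808 to 142444410, plus strand) and *Tnnt3* (from 142498836 to 142516009, plus strand) are 54425 bases apart, and *Tnni1* (chromosome 1, from 135779434 to 135810989, plus strand) and *Tnnt2* (from 135836354 to 135852260, plus strand) 25364 bases. *Tnnc1* (chromosome 14, from 31208312 to 31211729, plus strand) lies inside the span of *Nisch* on the opposite strand without sharing exon bases, and *Tnnc2* (chromosome 2, from 164777161 to 164779967, minus strand) has no other troponin gene beside it.

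The 8 other genes that lie beside, between, or across the troponin genes were taken by position. Of the 7 tested, 1 (*Ube2c*) rose and 2 fell on fibronectin (*Nisch* and *Syt8*) and 1 (*Ube2c*) rose and 2 fell on Geltrex (*Prr33* and *Syt8*). Over all genes tested, 17.1% were called higher and 14.7% lower on fibronectin, and 16.4% and 16.6% on Geltrex. *Tnnt1* and *Tnni3*, the closest pair, stood at 123 and 0.353 CPM per kilobase in the Control. *Lad1*, between *Tnni1* and *Tnnt2*, was at 0.363 CPM in the Control and was not tested. *Lsp1*, between *Tnni2* and *Tnnt3*, was at 155 CPM in the Control and 131 CPM on fibronectin, and neither its log2 fold change on fibronectin (-0.24, adjusted p = 0.0991 in the edgeR test) nor that on Geltrex (-0.075, adjusted p = 0.631) passed the threshold. *Prr33*, on the minus strand, starts inside the span of *Tnnt3* and ends before it, and it fell on Geltrex (-1.99, adjusted p = 5.20e-05) and had -0.66 on fibronectin (adjusted p = 0.0532). *Nisch* had a log2 fold change of -0.37 on fibronectin (adjusted p = 0.000912), compared with -1.98 for *Tnnc1* within its span. *Ppp1r12c*, beside *Tnnt1*, had -0.30 (adjusted p = 0.0964). *Syt8*, beside *Tnni2*, was at 1.03 CPM in the Control and fell on fibronectin and Geltrex (-1.43 and -1.26, adjusted p = 0.0236 and 0.0399). *Dnaaf3*, which shares 86 of the 2063 exon bases of *Tnni3* on the same strand, was at 1.10 CPM in the Control and had 0.21 and 0.25 (adjusted p = 0.615 and 0.542), so the low *Tnni3* counts are uncertain in these bases.

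The bases before the starts of 4 of the genes that fell are shown so that the upstream letters of slow and cardiac forms that fell together can be compared. They are RefSeq promoter windows on GRCm38.p6. Such windows were given for 6 of the 8 genes, and *Tnnt3* and *Tnni2* had none. Each window of 300 bases was searched on both strands for the E-box CANNTG, bound by MyoD family factors, for the E-box CAGCTG, which is also counted as a CANNTG, for the MCAT box CATTCC, bound by TEAD factors, and for the MEF2 site and the CArG box by name. The 250 bases before the start are printed 5′ to 3′ on the strand of the gene, in lower case with matches in capitals (GGAATG is CATTCC read on the other strand). For *Tnnt1* the stretch is chr7:4515976-4516225 on the minus strand, with 29 bases inside annotated exons of the gene. For *Tnnt2* it is chr1:135836084-135836333, for *Tnni1* chr1:135799171-135799420 (19 bases inside exons of the gene), and for *Tnnc1* chr14:31208062-31208311, all on the plus strand, and the stretches of *Tnnt2* and *Tnnc1* hold no annotated exon of their gene. *Tnnt2* and *Tnni1* have a further annotated start each, and the first is shown.
Tnnt1: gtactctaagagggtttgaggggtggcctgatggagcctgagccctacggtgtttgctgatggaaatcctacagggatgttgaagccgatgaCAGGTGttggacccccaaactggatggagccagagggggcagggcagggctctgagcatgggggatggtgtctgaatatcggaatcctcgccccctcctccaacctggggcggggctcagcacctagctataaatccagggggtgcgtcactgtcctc
Tnnt2: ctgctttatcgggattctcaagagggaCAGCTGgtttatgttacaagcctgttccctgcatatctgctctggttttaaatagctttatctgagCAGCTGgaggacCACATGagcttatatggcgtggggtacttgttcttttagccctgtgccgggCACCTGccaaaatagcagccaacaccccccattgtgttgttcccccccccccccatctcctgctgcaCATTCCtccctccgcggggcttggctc
Tnni1: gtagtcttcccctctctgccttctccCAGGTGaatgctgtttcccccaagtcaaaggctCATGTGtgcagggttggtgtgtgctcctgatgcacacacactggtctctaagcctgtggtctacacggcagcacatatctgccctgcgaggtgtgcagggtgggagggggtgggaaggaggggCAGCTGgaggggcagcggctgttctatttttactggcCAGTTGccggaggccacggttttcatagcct
Tnnc1: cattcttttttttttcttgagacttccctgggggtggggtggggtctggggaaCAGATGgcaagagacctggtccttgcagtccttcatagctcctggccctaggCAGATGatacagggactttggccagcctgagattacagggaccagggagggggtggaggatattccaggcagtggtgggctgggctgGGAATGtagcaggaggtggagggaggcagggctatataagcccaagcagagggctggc

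An E-box CANNTG was found in the windows of all 4 genes, as in 72.3% of all 32851 promoter windows. The *Tnnt2* window held 5 (2 of them CAGCTG), that of *Tnni1* held 4 (1 of them CAGCTG), and those of *Tnnt1* and *Tnnc1* held 2 each and no CAGCTG, a motif in 16.3% of all windows. In the printed bases, the E-box of *Tnnt1* begins 158 bases before the start, and those of *Tnnc1* begin 197 and 145 bases before it. A CATTCC was in the windows of *Tnnt2* and *Tnnc1*, beginning 27 and 58 bases before the start, and in 14.7% of all windows. The letters of the MEF2 site (3.19% of all windows) and of the CArG box (1.63%) were in none of the 8 windows of the 6 genes, which says nothing about the factors. These matches are descriptions of the letters and not sites of binding.

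Troponin T anchors the complex on tropomyosin, and *Tnnt1* encodes its slow form. *Tnnt1* stood at 297, 272, and 241 CPM in the 3 Control samples, 289.6, 269.7, and 334 CPM on Collagen I, 56.1, 43.7, and 47.1 CPM on fibronectin, and 54.6, 50.8, and 56.1 CPM on Geltrex. The fibronectin and Geltrex samples overlapped each other and were all below the lowest Control sample. Its log2 fold change over the Control was -2.46 on fibronectin (SE 0.11, adjusted p = 1.30e-09 in the edgeR test) and -2.33 on Geltrex (SE 0.11, adjusted p = 1.92e-09), which was 5.52- and 5.02-fold lower. No other tested troponin gene had a lower log2 fold change in either comparison.

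*Tnnt3*, the fast form, was counted at 1055, 1051, and 949 CPM in the 3 Control samples, 1031, 1027, and 1144 CPM on Collagen I, 254, 215, and 220.2 CPM on fibronectin, and 332, 291, and 317 CPM on Geltrex. All fibronectin and Geltrex samples were below the Control, and the fibronectin samples lay below the Geltrex samples without overlap. The log2 fold changes were -2.15 on fibronectin (SE 0.092, adjusted p = 1.30e-09) and -1.70 on Geltrex (SE 0.090, adjusted p = 3.54e-09). The fast gene therefore fell with the slow gene, by 4.43- and 3.25-fold.

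*Tnnt2*, the cardiac form, was read at 876, 817, and 864 CPM in the 3 Control samples, 798, 774, and 866 CPM on Collagen I, 263, 265, and 220.2 CPM on fibronectin, and 298, 275, and 319 CPM on Geltrex. The Geltrex samples again lay above the fibronectin samples and below the Control. Relative to the Control, *Tnnt2* had log2 fold changes of -1.77 on fibronectin (SE 0.091, adjusted p = 3.33e-09) and -1.52 on Geltrex (SE 0.091, adjusted p = 9.31e-09). On fibronectin, the 95% intervals of *Tnnt1* (-2.70 to -2.23) and *Tnnt2* (-1.96 to -1.58) did not overlap, and neither did those on Geltrex (-2.57 to -2.09 and -1.71 to -1.33).

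Other genes of the heart were at much lower levels than this cardiac troponin gene. Of 9 cardiac muscle markers, *Hand2* and *Myl7* had a count of 0 in all 12 samples, *Tbx5*, *Nppa*, and *Ryr2* did not exceed 3 counts in any sample, and all 9 summed to 17.2 to 25.2 CPM per sample, most of it from *Gata4*. Of these markers, 3 were tested: *Gata4* did not pass the threshold on fibronectin or Geltrex, *Nppb* rose on both, and *Myh6*, a close paralog of the slow myosin gene *Myh7* whose reads may have been divided between both genes, fell on both. Of 5 smooth muscle markers, 3 were tested, and their sums of 863 to 1294 CPM were mostly *Acta2*, which muscle cells also transcribe.

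**Figure D2:**
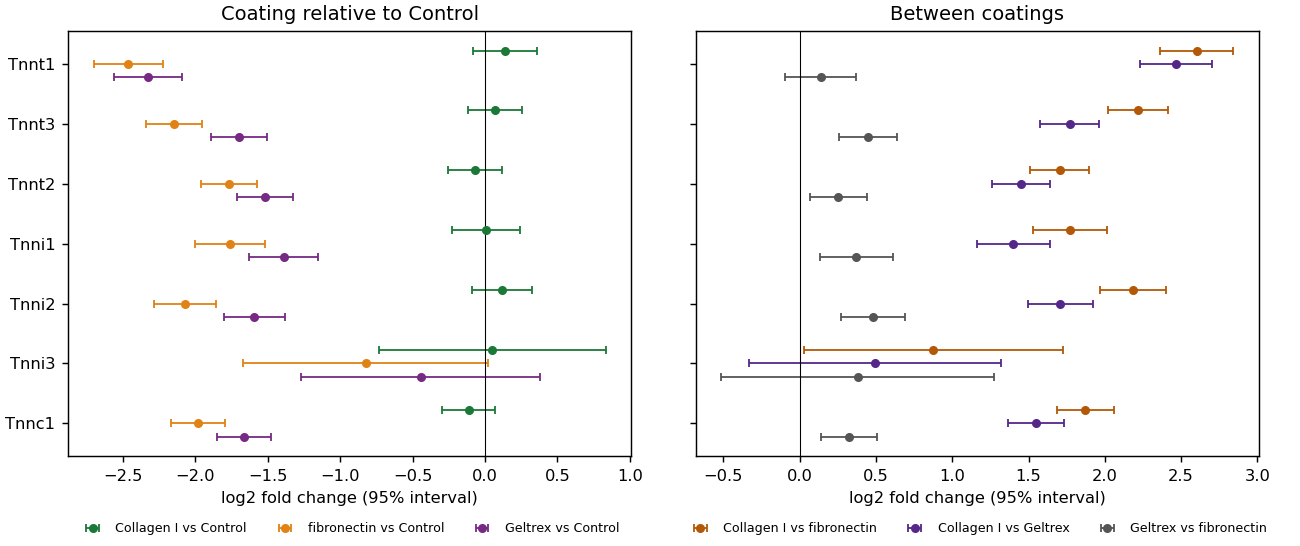
Log2 fold changes of the 7 tested troponin genes with 95% intervals from edgeR's quasi-likelihood fit, for each coating relative to Control (left) and between coatings (right); the vertical line marks no difference. On the left the fibronectin and Geltrex points of the 6 abundant genes lie between -2.46 and -1.39 and the Collagen I points next to 0, and on the right the Geltrex vs fibronectin points lie between 0.14 and 0.48.

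Among the inhibitory subunits, the slow gene *Tnni1* stood at 416, 411, and 336 CPM in the 3 Control samples, 409, 367, and 393 CPM on Collagen I, 128, 93.6, and 121 CPM on fibronectin, and 157, 139, and 148 CPM on Geltrex. The groups on fibronectin and Geltrex did not overlap the Control, and fibronectin replicate 2 had the lowest level of the 12 samples. Against the Control, *Tnni1* had log2 fold changes of -1.76 on fibronectin (SE 0.11, adjusted p = 2.91e-08 in the edgeR test) and -1.39 on Geltrex (SE 0.11, adjusted p = 1.90e-07). It fell 3.40- and 2.62-fold, on fibronectin by as much as *Tnnt2* within their errors (3.41-fold).

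*Tnni2*, the fast inhibitory subunit, had 502, 489, and 498 CPM in the 3 Control samples, 507, 468, and 639 CPM on Collagen I, 125, 111, and 118 CPM on fibronectin, and 168, 167, and 159 CPM on Geltrex. The Control samples lay close together, Collagen I replicate 3 stood above the others of its group, and the fibronectin and Geltrex samples did not overlap. The log2 fold changes were -2.07 on fibronectin (SE 0.10, adjusted p = 2.28e-09) and -1.59 on Geltrex (SE 0.10, adjusted p = 1.25e-08). For troponin I the slow gene thus had the smaller log2 fold change, where for troponin T the slow gene had the larger.

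*Tnni3*, the cardiac inhibitory subunit, had 18, 18, and 19 counts in the Control samples, 15, 20, and 20 on Collagen I, 9, 16, and 6 on fibronectin, and 11, 9, and 17 on Geltrex. Fibronectin replicate 2 and Geltrex replicate 3 lay within the range of the Control in CPM, so both groups overlapped it. *Tnni3* had log2 fold changes of -0.83 on fibronectin (95% interval -1.67 to 0.023, adjusted p = 0.128 in the same test) and -0.44 on Geltrex (-1.27 to 0.38, adjusted p = 0.416). Neither passed the threshold. Without fibronectin replicate 2 the first was -1.33 and passed (adjusted p = 0.0395).

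*Tnnc1*, the calcium-binding subunit of slow fibers and of the heart, was counted at 1132, 1036, and 996 CPM in the 3 Control samples, 965, 879, and 1082 CPM on Collagen I, 277, 268, and 254 CPM on fibronectin, and 339, 327, and 334 CPM on Geltrex. It had the highest level per exon length of the 8 genes in each group, and its Geltrex samples lay above its fibronectin samples without overlap. *Tnnc1* had log2 fold changes of -1.98 on fibronectin (SE 0.089, adjusted p = 1.30e-09 in the edgeR test) and -1.66 on Geltrex (SE 0.088, adjusted p = 3.43e-09).

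*Tnnc2*, the fast calcium-binding subunit, had 3, 6, and 3 counts in the Control samples, 5, 6, and 4 on Collagen I, 4, 0, and 0 on fibronectin, and 1, 0, and 0 on Geltrex, too few for the filter of the edgeR test. With no filter on low counts it was called in 1 of the 6 comparisons, as higher on Collagen I than on Geltrex (adjusted p = 0.0404), where the Geltrex samples held 1 count in all. A count of 0 in these libraries allows up to 3 counts, or 0.116 to 0.135 CPM in the 4 samples at 0, for counting error only. In the GENCODE annotation, 592 of its 800 exon bases (74%) are also exon of *Ube2c* on the opposite strand, which leaves 208 bases of its own. *Ube2c*, a ubiquitin-conjugating enzyme of the cell cycle, had group means of 8.89, 7.97, 23.4, and 23.7 CPM in the Control and on Collagen I, fibronectin, and Geltrex, and rose on fibronectin and Geltrex (adjusted p = 1.38e-06 and 9.10e-07 in the edgeR test). Whether the counting used the strand is not given in the sources used here, so reads of these genes cannot be told apart, and the part of the overlap in the low *Tnnc2* counts was not tested. Levels and shares of *Tnnc2* are those of the listed counts over all its exon bases.

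Collagen I was next compared with the other coatings. Of the 7 tested troponin genes, 6 were higher on Collagen I than on fibronectin, compared with 22.1% of all genes tested, with log2 fold changes of 1.70 (*Tnnt2*) to 2.60 (*Tnnt1*). The same number were higher than on Geltrex, compared with 18.2% of all genes, from 1.40 (*Tnni1*) to 2.47 (*Tnnt1*). The fast genes *Tnnt3* and *Tnni2* were higher on Collagen I than on fibronectin by 2.22 (SE 0.092, adjusted p = 5.94e-10 in the edgeR test) and 2.19 (SE 0.10, adjusted p = 9.79e-10), and than on Geltrex by 1.77 (adjusted p = 1.68e-09) and 1.71 (adjusted p = 6.36e-09). The cardiac gene *Tnnt2* was higher by 1.70 and 1.45 (adjusted p = 3.24e-09 and 1.10e-08). These comparisons share their fibronectin or Geltrex samples with those against the Control, and are not separate evidence of direction.

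Between Geltrex and fibronectin, 4 troponin genes were higher on Geltrex, compared with 9.06% of all genes tested, and 0 were lower, compared with 10.3%. These were the fast genes *Tnni2* (0.48, SE 0.099, adjusted p = 0.00286 in the edgeR test) and *Tnnt3* (0.45, SE 0.088, adjusted p = 0.00207), and the slow genes *Tnni1* (0.37, SE 0.11, adjusted p = 0.0296) and *Tnnc1* (0.32, SE 0.086, adjusted p = 0.0151). *Tnnt2* had a log2 fold change of 0.25 without overlap between the groups (adjusted p = 0.0579), and *Tnnt1* one of 0.14 with overlap (95% interval -0.10 to 0.37, adjusted p = 0.408). *Tnni1* and *Tnnc1* no longer passed without Geltrex replicate 1 (log2 fold changes 0.33 and 0.31, adjusted p = 0.115 and 0.0633) or without Geltrex replicate 3 (0.37 and 0.32, adjusted p = 0.0813 and 0.0524), and *Tnni1* also not without fibronectin replicate 2 (0.25, adjusted p = 0.136).

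Levels were compared between troponin genes only per kilobase of annotated exon. In the Control, *Tnnc1* stood first at 1013 CPM per kilobase, followed by *Tnnt3* at 643 and *Tnni2* at 332. *Tnnt1* (109.5 to 135), *Tnnt2* (105 to 113), and *Tnni1* (93.3 to 116) came next with overlapping ranges over the samples. *Tnni3* and *Tnnc2* followed at 0.353 and 0.195.

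The leading genes kept their order in every group, with no overlap between neighbors. On fibronectin, *Tnnc1*, *Tnnt3*, and *Tnni2* were at 256, 145, and 78.9 CPM per kilobase, and on Geltrex at 320.1, 198, and 109.9. The order behind them changed. *Tnnt1* was above *Tnnt2* and *Tnni1* in the means of the Control and of Collagen I, and below both on fibronectin (19.8 to 25.4, against 28.4 to 34.2 for *Tnnt2* and 26.0 to 35.5 for *Tnni1*) and on Geltrex (23.0 to 25.4, against 35.5 to 41.1 and 38.5 to 43.5). Its samples did not overlap those of *Tnnt2* or *Tnni1* in either of these groups. With the longest transcript as the length, *Tnnt1* and *Tnnt2* were level in the Control (255 and 256 CPM per kilobase), and on fibronectin the samples of *Tnnt1* (41.3 to 53.0) and *Tnni1* (43.5 to 59.4) overlapped, so the order of these genes rests in part on the annotated length.

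Summed over their isoform genes, the troponin T genes stood at 876, 914, 199.5, and 261 CPM per kilobase in the Control and on Collagen I, fibronectin, and Geltrex, and the troponin I genes at 439.7, 468, 111, and 151. The troponin C genes, by their listed counts, stood at 1013, 937, 256, and 320.1. The lowest Control or Collagen I mean of each subunit was above both other means.

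The share of each isoform gene in its subunit was then computed from counts per kilobase of exon. A share is free of library scaling, and it is described here with no test. *Tnnt1*, the slow gene, made up 14.8, 13.8, and 13.4% of troponin T in the Control samples, 14.8, 14.0, and 15.4% on Collagen I, 11.6, 10.4, and 11.3% on fibronectin, and 9.08, 9.51, and 9.55% on Geltrex. The 3 levels did not overlap: Control and Collagen I were highest, fibronectin lay below them, and Geltrex lay below fibronectin. The group means ± SD (n = 3) were 14.0 ± 0.718%, 14.7 ± 0.659%, 11.1 ± 0.593%, and 9.38 ± 0.258% in the same order.

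The slow share of troponin I had another order of the groups. *Tnni1* made up 25.6, 25.9, and 21.9% of troponin I in the Control samples, 25.1, 24.6, and 20.4% on Collagen I, 29.9, 25.8, and 29.8% on fibronectin, and 28.0, 25.6, and 27.8% on Geltrex. The fibronectin and Geltrex samples lay above every Collagen I sample, and their lowest samples just overlapped the Control. The group means were 24.4 ± 2.24%, 23.4 ± 2.60%, 28.5 ± 2.34%, and 27.1 ± 1.31%. A single order of slow shares was therefore not common to both subunits: on fibronectin and Geltrex the slow share of troponin T was lower than on Collagen I, and that of troponin I was higher.

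*Tnnt3*, the fast gene, had mean shares of 73.4, 73.8, 72.7, and 75.9% in the Control and on Collagen I, fibronectin, and Geltrex. *Tnnt2*, the cardiac gene, had a mean share of 12.6 ± 0.907% in the Control, 11.5 ± 0.142% on Collagen I, 16.2 ± 1.61% on fibronectin, and 14.7 ± 0.667% on Geltrex. Its fibronectin and Geltrex samples were all above the highest Control sample. Both shares depend strongly on the length: from counts not divided by length, *Tnnt3* had 47.5, 49.0, 43.5, and 47.1% and *Tnnt2* 39.8, 37.3, 47.2, and 44.8%, so that *Tnnt3* stood below *Tnnt2* on fibronectin and its share was highest on Collagen I in place of Geltrex. *Tnni2* held 75.5, 76.6, 71.3, and 72.7% of troponin I, and *Tnni3* between 0.0781 and 0.186%. In the listed counts, *Tnnc1* was at least 99.9% of troponin C in each sample, with most exon bases of *Tnnc2* shared with *Ube2c*.

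**Figure D3:**
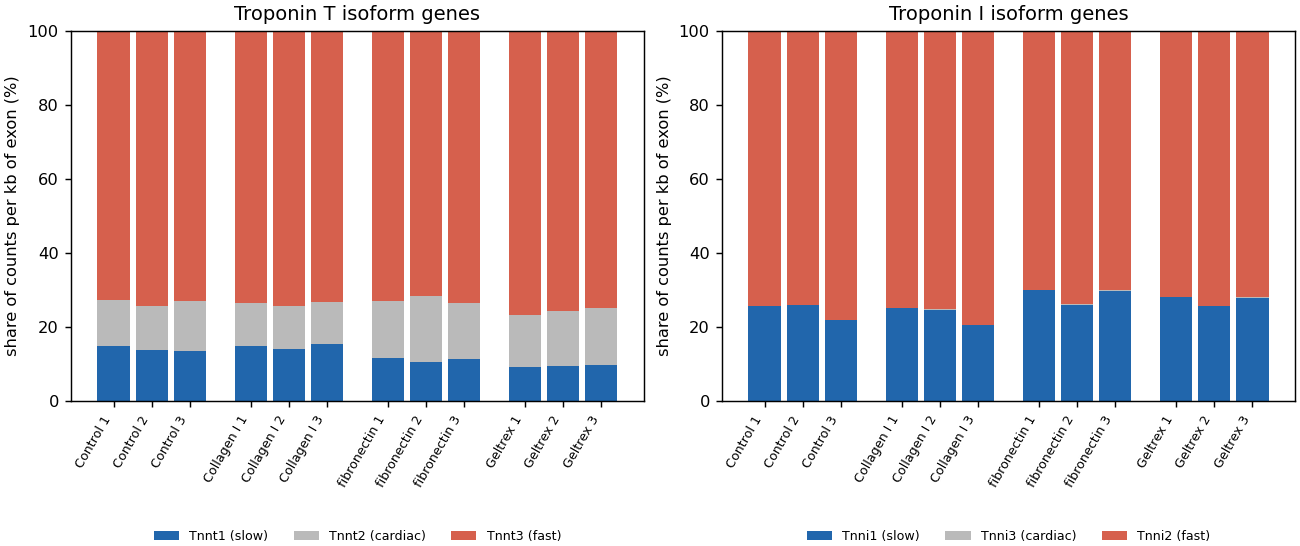
Stacked bars of the share (%) of each isoform gene in troponin T (left) and troponin I (right), from counts per kilobase of exon, 1 bar per sample and 3 samples per group. The slow part of troponin T is smallest in the Geltrex bars (9.38% on average) and largest on Collagen I (14.7%), while the slow part of troponin I is largest on fibronectin (28.5%) and smallest on Collagen I (23.4%).

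Ratios of the raw counts of 2 genes in 1 sample do not depend on scaling. Their values depend on the exon lengths of both genes, but the differences of their log2 values between groups do not. The log2 ratio of *Tnnt1* to *Tnnt3* counts was -1.83, -1.95, and -1.97 in the Control samples, -1.83, -1.93, and -1.78 on Collagen I, -2.18, -2.30, and -2.23 on fibronectin, and -2.60, -2.52, and -2.50 on Geltrex. All Geltrex samples were below all fibronectin samples, which were below all Control and Collagen I samples. The ratio of *Tnnt2* to *Tnnt3* had means of -0.26, -0.39, 0.12, and -0.074 (SD 0.11, 0.020, 0.16, and 0.082), and the ratio of *Tnni1* to *Tnni2* means of -0.36, -0.45, -0.061, and -0.16 (SD 0.18, 0.21, 0.17, and 0.098). The 3 ratios shared no common order of the coatings: Geltrex was lowest for *Tnnt1* to *Tnnt3*, and Collagen I was lowest for the other ratios.

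**Figure D4:**
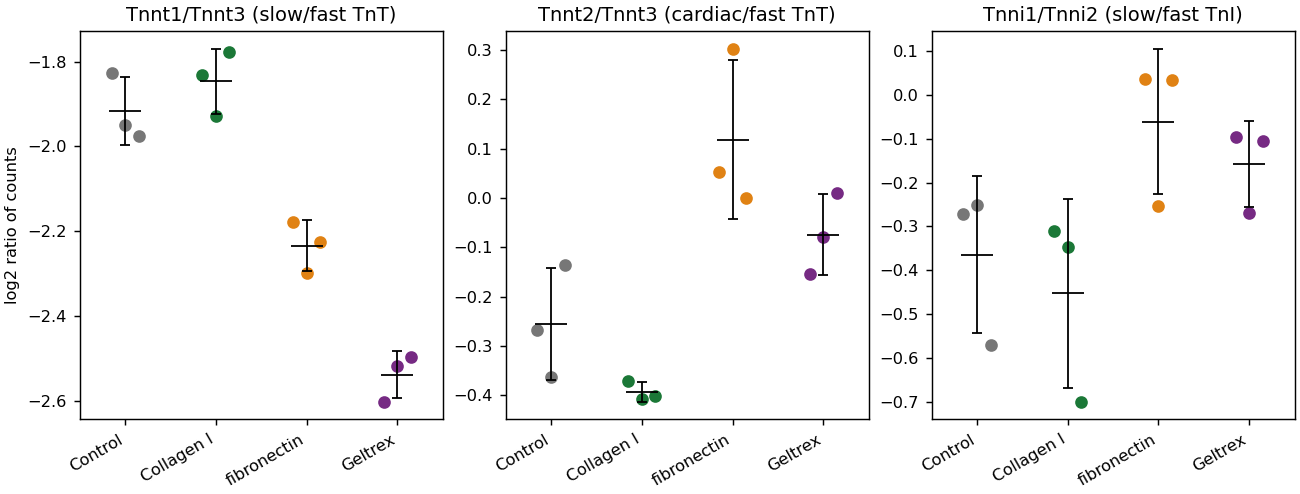
Log2 ratio of the raw counts of 2 isoform genes within each sample, for slow over fast troponin T, cardiac over fast troponin T, and slow over fast troponin I; points are samples, bars are group means and error bars SDs of 3 samples. The Geltrex points are lowest in the first panel (mean -2.54), and the fibronectin means are highest in the other panels (0.12 and -0.061).

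The 6 abundant troponin genes had nearly the same profile over the 12 samples, with Pearson's r of log2 CPM between 0.977 (*Tnnt2* and *Tnni1*) and 0.996 (*Tnnt2* and *Tnnc1*). These correlations describe the split between the groups, are across samples that share their groups and library depth, and are given with no p. *Tnni3* had r of 0.629 to 0.744 with the others at its few counts.

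Among all other genes, the 3 with the profile most like each member were mostly other muscle genes. For *Tnnt1* they were *Myoz2* (r = 0.995, n = 12), *Myl2* (0.993), and *Myl4* (0.992), a calcineurin-binding protein of the Z-disc, the slow and ventricular regulatory light chain, and an embryonic and atrial light chain of myosin. For *Tnnt3* they were *Myl4* (0.997), *Myog* (0.993), the transcription factor myogenin, and *Lmod3* (0.993), an actin filament nucleator, and for *Tnnt2* *Hrc* (0.995), *Lmod3* (0.992), and *Myoz2* (0.989). For *Tnni1* they were *Myog* (0.998), *Myl6b* (0.996), and *Apobec2* (0.996), for *Tnni2* *Rabl6* (0.993), *Tpm2* (0.993), and *Tspan3* (0.992), and for *Tnnc1* *Hrc* (0.990), *Cdkn1a* (0.990), and *Myl4* (0.989). For *Tnni3* they were *Gm10856* (0.899), *Ccdc136* (0.890), and *Mtln* (0.873). The 95th percentile over all genes was 0.868 to 0.879 for the abundant genes and 0.637 for *Tnni3*, so a high r was common here.

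The other proteins of the thin filament did not all follow. Of 16 such genes, all tested, 12 fell and 1 rose on fibronectin, and 11 fell and 1 rose on Geltrex. Over all genes tested, 14.7% were called lower and 17.1% higher on fibronectin, and 16.6% and 16.4% on Geltrex. The median log2 fold changes of the 16 were -1.25 and -1.26 (troponin genes tested, -1.98 and -1.59, and all genes, -0.016 and -0.012). The gene that rose was *Tpm4*, a cytoskeletal tropomyosin, at 0.93 on fibronectin and 0.71 on Geltrex (adjusted p = 4.13e-07 and 4.42e-06 in the edgeR test), named after its values were seen. *Acta1*, skeletal actin, fell by 1.93 on fibronectin and 1.25 on Geltrex (log2, adjusted p = 8.93e-09 and 2.71e-07). *Tpm2*, the beta-tropomyosin to which troponin T binds, fell by 1.39 and 0.94 (adjusted p = 1.03e-08 and 2.50e-07). *Acta2*, smooth muscle actin, fell by 0.24 on fibronectin (adjusted p = 0.0459) and had -0.035 on Geltrex (adjusted p = 0.793). On Collagen I, 0 of the 16 passed in edgeR's test (medians -0.036 and -0.0031 for the list and all genes).

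Outside the thin filament, slow and fast sarcomere and calcium genes fell as the slow and fast troponin genes did. Of 13 slow fiber genes, 10 were tested, and all 10 fell on fibronectin and on Geltrex (medians -1.84 and -1.68), while *Sln* had a count of 0 in every sample and *Myl3* and *Pln* were too low to test. Of 12 fast fiber genes, 11 were tested, of which 11 fell on fibronectin and 10 on Geltrex (medians -1.65 and -1.31). Over all genes tested, 14.7% were called lower on fibronectin and 16.6% on Geltrex (medians -0.016 and -0.012). Among the most abundant slow genes, the calcium-handling genes *Atp2a2* and *Casq2* fell by 0.61 and 1.73 on the log2 scale on fibronectin (adjusted p = 0.000802 and 4.36e-08 in the edgeR test) and the light chain *Myl6b* by 1.95 (adjusted p = 3.70e-08). Among the fast genes, the light chains *Mylpf* and *Myl1* fell by 1.54 and 1.71 (adjusted p = 1.28e-08 and 1.92e-08), and *Actn3*, an actin cross-linker of the Z-disc, by 0.71 (adjusted p = 1.52e-06). On Geltrex, *Mylpf*, *Myl1*, and *Actn3* fell by 0.88, 0.95, and 0.22 (adjusted p = 1.57e-06, 4.27e-06, and 0.021), compared with -1.59 for the median of the tested troponin genes. Small falls there were not confined to fast genes. The log2 fold changes on Geltrex spanned -3.08 to -0.59 for the tested slow genes and -2.17 to -0.19 for the tested fast genes. On Collagen I, 1 slow gene rose (*Mybpc1*, 0.87, adjusted p = 0.0443) and 1 fell (*Ankrd2*, -0.65, adjusted p = 0.00794), and 1 fast gene fell (*Myh1*, -0.51, adjusted p = 0.0335), all named after their values were seen.

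**Figure D5:**
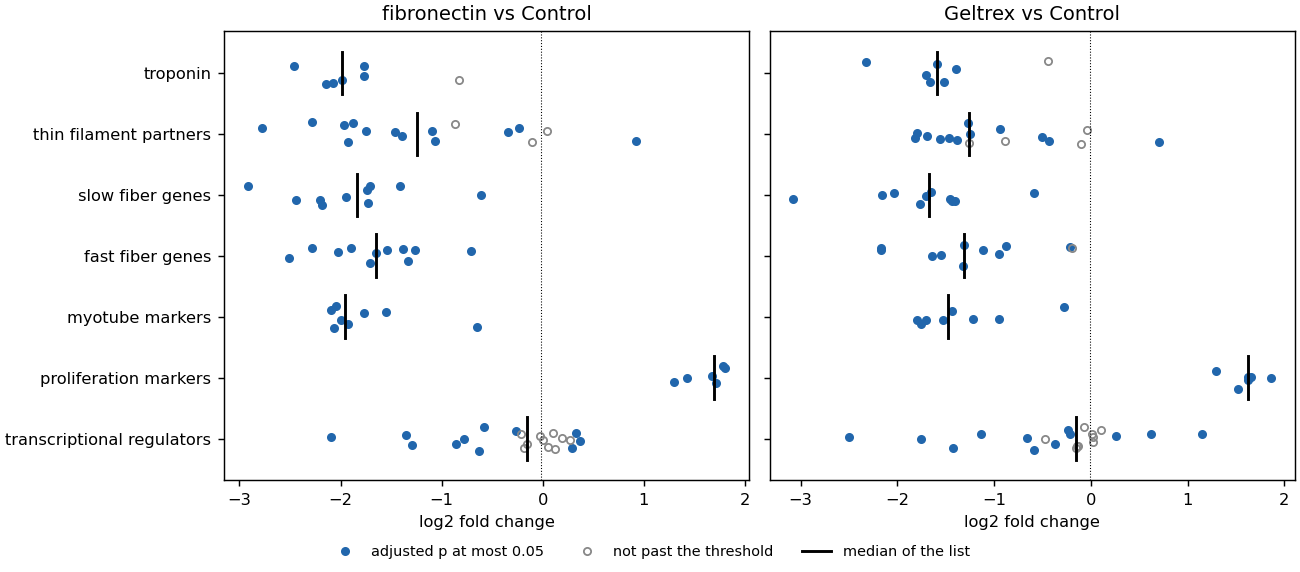
Log2 fold changes on fibronectin (left) and Geltrex (right) relative to Control for the tested genes of each list; filled points have an adjusted p of at most 0.05, open points do not, black bars are list medians and the dotted line is the median of all 14499 genes tested. The troponin, slow fiber, fast fiber, and myotube genes lie to the left with medians between -1.98 and -1.31, and the proliferation markers to the right with medians of 1.70 and 1.63.

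Of 24 regulators known for troponin and fiber type genes, 21 were tested, of which 8 fell and 3 rose on fibronectin and 9 fell and 3 rose on Geltrex (medians -0.15 and -0.15). Over all genes, 14.7% were lower and 17.1% higher on fibronectin, and 16.6% and 16.4% on Geltrex, so the share of regulators that rose was near that of all genes. *Myog* fell by 2.10 on fibronectin and 1.76 on Geltrex (log2, adjusted p = 1.45e-08 and 5.08e-08 in the edgeR test), and *Mef2c*, which acts with the MyoD family on muscle genes, by 1.30 and 1.42 (adjusted p = 1.98e-05 and 5.68e-06). *Myod1*, which acts earlier, had -0.19 on fibronectin (adjusted p = 0.116) and fell by 0.23 on Geltrex (adjusted p = 0.0489).

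*Gtf2ird1*, a factor first described at the upstream enhancer of slow troponin I, was at 52.2 CPM in the Control and 45.7, 52.2, and 52.9 CPM on Collagen I, fibronectin, and Geltrex. The log2 fold changes over the Control were -0.19, -0.00067, and 0.019 (adjusted p = 0.265, 0.996, and 0.878), and none passed. *Sox6*, a repressor of slow fiber genes, was at most at 0.273 CPM in the mean of a group and was not tested. *Nfatc1*, a calcineurin target that acts on slow fiber genes, fell by 0.50 on Collagen I (adjusted p = 0.0164), where no troponin gene passed, and had 0.049 and -0.15 on fibronectin and Geltrex (adjusted p = 0.718 and 0.249). The abundant *Mef2a*, *Nfix*, and *Tead1* had log2 fold changes between -0.22 and 0.27 on fibronectin and Geltrex, and none passed.

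Troponin T transcripts are spliced in several forms, which gene counts do not separate. The table gives 1 count for each gene although 27 transcripts are annotated for *Tnnt3*, 15 for *Tnnt2*, and 13 for *Tnnt1*, so embryonic and adult splice forms were not measured here. Of 11 known regulators of this splicing, all tested, 2 fell and 2 rose on fibronectin, and 4 fell and 2 rose on Geltrex. On fibronectin both counts were near the shares of all genes (14.7% lower and 17.1% higher), and on Geltrex these shares were 16.6% and 16.4%. *Mbnl1*, the most abundant, had 0.25 on fibronectin (adjusted p = 0.11 in the edgeR test) and fell by 0.38 on Geltrex (adjusted p = 0.02). *Rbfox2* (-0.083 and 0.012) and *Celf2* (-0.086 and 0.12) did not pass in either comparison.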

How the data were processed

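RNA-seq of C2C12 cells that express GFP was examined in 12 samples, 3 each for Control, Collagen I, fibronectin, and Geltrex. Quality control was by FastQC, trimming by Trimmomatic, mapping by HISAT2, and counting by featureCounts, with no versions given. The authors deposited raw read counts per gene with no normalization, filter, or pooling. Genome build, annotation, strand setting, and treatment of multiply mapped reads are not given in the sources used here. All 55536 identifiers are in GENCODE M21 (GRCm38), which gave names, positions, and exon lengths.

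R 4.3.3 and edgeR 4.0.16 were used for the tests. The filter was filterByExpr (minimum count 10, minimum total 15), the scaling TMM, and 1 quasi-likelihood model of the 4 groups, with 8 residual degrees of freedom, gave 6 comparisons, two-sided. A gene was called at a Benjamini-Hochberg adjusted p of at most 0.05 over all 14499 genes tested. The SE is the log2 fold change divided by the root of the F statistic. Shares used counts divided by the merged exon length. Profiles were compared by Pearson's r of log2 CPM with a prior count of 2. The procedure was also tested on simulated data.

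Genes named are the 8 troponin genes, the 3 with the highest r for each, the 3 most abundant of each list, and *Gtf2ird1*, *Sox6*, *Mef2c*, *Myog*, *Myod1*, and *Nfatc1*. Genes that stood apart in a list were named after their values were seen, and the 8 locus neighbors were listed by position after the data had been seen. The members and lists were chosen with earlier results of these data known. Alternatives were DESeq2 1.42.0, RLE normalization, no filter, at least 10 counts in every sample, only the groups compared, a fold change of at least 2, the replicate number as a block, and leaving out each sample. Other lengths were tried for shares. PCR copies were not told apart by molecular identifiers, so the limit for a count of 0 covers counting error alone. Same-numbered samples were not treated as pairs, since nothing states a shared batch. Their deviations from the group means also did not all correlate above 0.1 in any comparison (lowest -0.154, highest 0.225). Between Collagen I and fibronectin they correlated at 0.047, 0.169, and 0.225, each above every pair of different numbers (at most 0.042). The motif search covered 300 bases, of which the 250 before the start were printed.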

Additional observations from a re-analysis of the deposited data

How the results depend on the processing

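The 6 abundant troponin genes stayed called against the Control, and on Collagen I against fibronectin and Geltrex, under each alternative run. Leaving out 1 sample gave 0 calls between Collagen I and the Control, 6 to 7 for fibronectin against the Control and for Collagen I against fibronectin (7 without fibronectin replicate 2, when *Tnni3* passed), and 6 for Geltrex against the Control and Collagen I against Geltrex. For Geltrex against fibronectin, it gave 2 to 5 calls: 2 without Geltrex replicate 1 or replicate 3, 3 without fibronectin replicate 2, and 5 without Collagen I replicate 3, when *Tnnt2* passed. There, 0 genes were called with a fold change of at least 2 as well, and 0 with the 3 Geltrex samples summed into 1 (log2 fold changes 0.44 for *Tnnt3*, 0.37 for *Tnni1*, 0.48 for *Tnni2*, and 0.32 for *Tnnc1*), an alternative added after the data were seen that leaves that group 1 sample and assumes it to vary like the others. *Tnnt2* passed there with DESeq2 (0.25, adjusted p = 0.0378) and with only these 2 groups (0.26, adjusted p = 0.0452). In the fit with a block for the replicate number, calls numbered 0, 6, 6, 6, 6, and 4 as before, the log2 fold changes of the abundant genes moved by at most 0.0073, and no call changed. In no comparison did all same-numbered samples correlate above 0.1, though between Collagen I and fibronectin all their correlations were positive. Whether same-numbered samples shared a batch is not known.

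The slow share of troponin T depended on the length used: in the order Control, Collagen I, fibronectin, and Geltrex it was 12.6, 13.6, 9.26, and 8.11% from counts without division by length, 17.5, 18.5, 13.8, and 11.8% with the longest transcript, and 16.0, 16.7, 13.2, and 11.0% over slow plus fast genes only, added after the data were seen. That of troponin I was 43.7, 42.2, 48.9, and 47.2% from counts, and that of troponin C on Collagen I 99.98%. The order of the 4 groups was the same under each for the slow shares of troponin T and of troponin I. With no filter on low counts, 7 genes were called for Collagen I against Geltrex, *Tnnc2* being the 7th. Depth limits *Tnni3* and *Tnnc2*, whose few counts leave wide errors.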
